A study of Drosophila melanogaster with 24 samples.

Results

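The 9 genes described here encode parts of the autophagy machinery of Drosophila melanogaster: Atg1, Atg13, Atg17, Atg9, Atg7, Atg5, Atg8a, Atg8b and ref(2)P. They were chosen by name, as the genes whose symbol in the deposited tables is exactly one of these, and all 9 were found among 17637 genes. RNA from heads of old and young flies was sequenced over the day in 24 libraries, and the question put to the data was how the level and the daily rhythm of these mRNAs differ between the ages. Old flies were 55 days of age and young flies 5 days, both mated females of the white-eyed strain w[1118] kept on the same diet in 12 h of light and 12 h of darkness, with no transgene or drug in either group. Pooled heads of each age were collected every 4 h, at ZT 0, 4, 8, 12, 16 and 20 (Zeitgeber time, counted in hours from the onset of light), with 2 biological replicates per age and time, so that each age has 12 libraries. The replicates are called the first and the second cycle, in the order in which the tables list them.

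Autophagy encloses cytoplasm, protein aggregates or organelles in a double membrane, the autophagosome, which then fuses with lysosomes so that the cargo is degraded. It is started by a kinase complex, needs a membrane protein that brings in lipid vesicles, and uses a ubiquitin-like conjugation system that ties Atg8 proteins to the growing membrane, where receptors such as ref(2)P deliver cargo. In fly brain and muscle, ref(2)P protein is widely used as a readout of autophagy because it is itself degraded there. The data here are mRNA levels and give neither protein amounts nor the rate of autophagy.

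The values are FPKM, fragment counts divided by the length of the transcript and by the size of the library. They hold no absolute depth, and no counting error is given. The spacing of the lowest values placed the depths between 0.877 and 1.31 times that of the first old library, and between 12507 and 13052 genes were above 0 in each library. How the tables of the 2 ages were made comparable, if they were, is not given in the sources used here. On the deposited scale the libraries of old heads lay 0.22 higher on the log2 scale than those of young heads, as the difference of mean scaling factors. All 24 libraries were therefore brought to a common scale by the median ratio of each to the mean library, and "scaled FPKM" below means these values. The log2 scaling factors also changed over the day. In old heads they fell from 0.20 and 0.18 at ZT 0 to -0.0057 and -0.0049 at ZT 12. In young heads they fell from -0.055 and -0.050 at ZT 0 to -0.26 and -0.23 at ZT 12. Scaling thus acts on the daily curves as well as on the age difference. Defining markers of head tissue were present, with ninaE, the main rhodopsin of the outer photoreceptors, at 7470 to 12414 scaled FPKM in old heads and at 9733 to 13810 in young heads. In 4 of the 12 pairs of libraries of the same age and time, the 2 cycles differed more than elsewhere. The SD of their log2 difference over 6874 genes was 0.446 to 0.568 in these pairs and 0.312 to 0.347 in the other 8. In each of the 4 pairs the library with the larger median SD from the libraries of the neighbouring times is said here to stand apart. These are the second cycle at ZT 16 of old heads (0.439, against 0.393 for the other cycle), and of young heads the first at ZT 12 (0.498 against 0.459), the second at ZT 16 (0.492 against 0.439) and the first at ZT 20 (0.534 against 0.460). The choice within a pair rests on these small gaps, and both old libraries of ZT 0, whose pair was not among the 4, had larger values on the same measure (0.569 and 0.545).

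The levels of the 9 genes spanned a wide range, and their order was the same at both ages. FPKM is a measure per length, so genes can be set side by side. On the deposited scale Atg8a was highest, with a mean of 544 FPKM in old and 438 in young heads, and ref(2)P followed with 173 FPKM in old and 105 in young heads. Atg1 averaged 44.2 FPKM in old and 42.3 in young heads, and its range overlapped neither that of ref(2)P above it nor that of Atg17 below it at either age. Atg17 (25.3 FPKM in old, 20.3 in young heads) and Atg13 (18.6 in old, 16.1 in young heads) overlapped in their ranges, as did Atg7 (12.4 in old, 11.1 in young heads) with Atg9 (12.2 in old, 10.0 in young heads) and Atg9 with Atg5 (7.24 in old, 6.29 in young heads). Atg8b was last, with 0.19 FPKM in old and 0.079 in young heads. The 2 Atg8 paralogues thus stood at the opposite ends of this order.

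**Figure D1:**
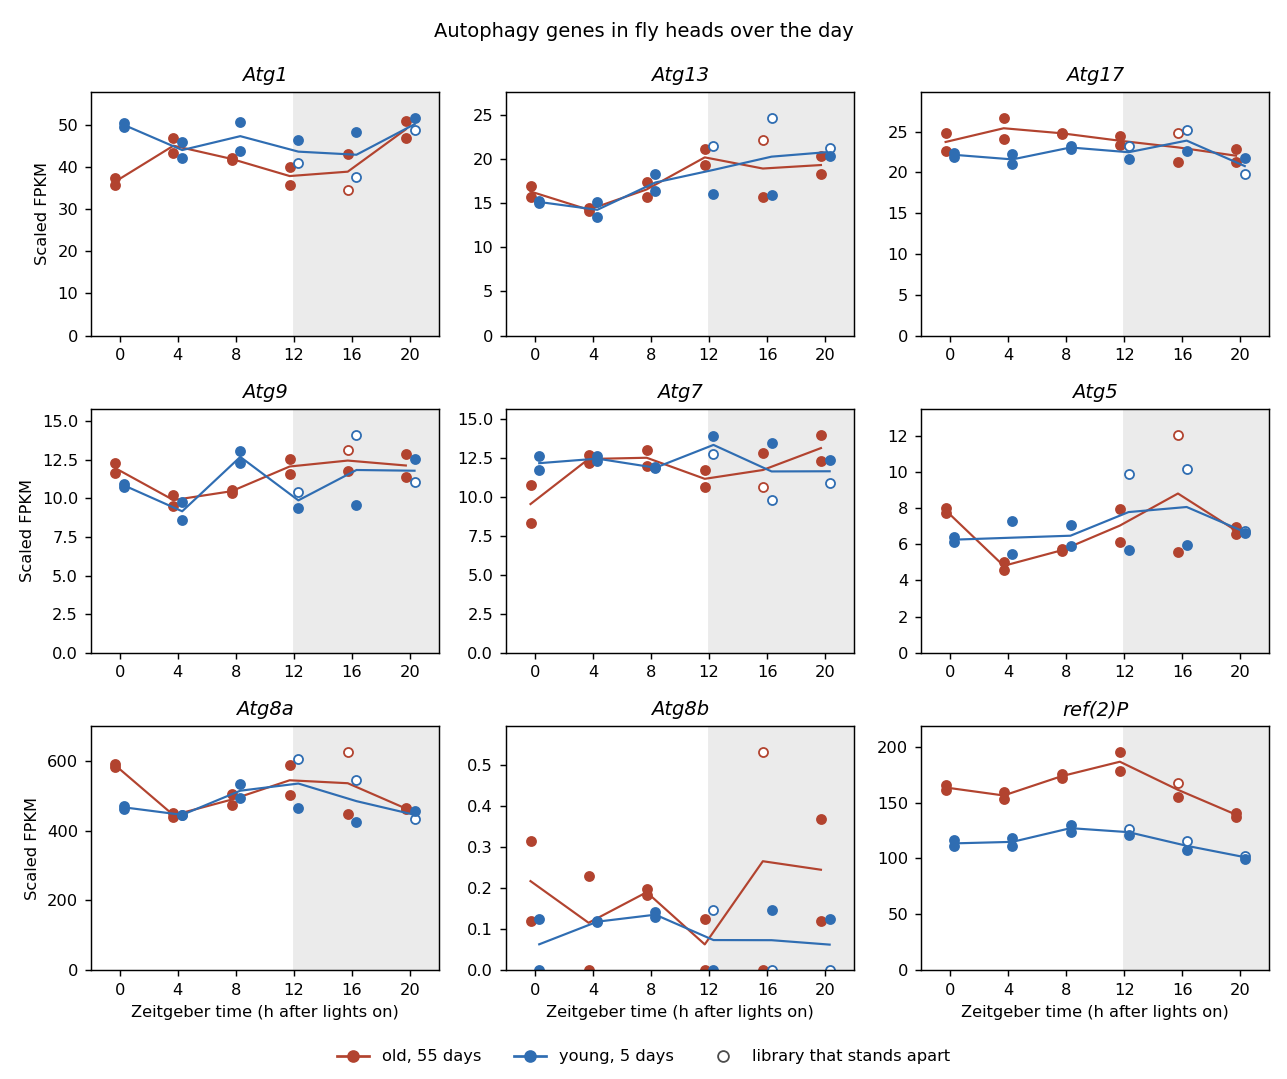
Scaled FPKM (vertical axes, each starting at 0) of the 9 genes against Zeitgeber time, in old heads (red) and young heads (blue). Points are single libraries, lines join the means of the 2 libraries of a time, open points are the 4 libraries that stand apart, and the dark phase is shaded; the ages lie apart at every time for ref(2)P, with old heads at 137 to 195 and young heads at 99.6 to 130, and cross for the other genes.

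Of the 8 genes that passed the filter of the age test, a mean above 1 FPKM at either age, 1 was called higher in old heads, none lower and 7 were not called. The test was limma on log2(scaled FPKM + 1) over 9800 genes, called at a Benjamini-Hochberg adjusted P of at most 0.01. Of all genes tested 20.4% were called higher in old heads and 21.1% lower, so a single higher call among 8 genes and no lower one does not exceed the background. The median log2 difference, old minus young, was 0.028 over the 8 genes and 0.022 over all genes tested. Differences on this scale understate the change of genes with low values. The called gene was ref(2)P.

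ref(2)P is the fly homologue of p62, the receptor that binds ubiquitinated cargo and Atg8a and is degraded with them. The gene lies at 2L:19542468-19545548 on the plus strand of BDGP6. It had a lowest value of 137, a median of 163 and a highest of 195 scaled FPKM in the 12 old libraries, against a lowest of 99.6, a median of 116 and a highest of 130 in the 12 young libraries. Every old library was above every young one, which held for 4.63% of all genes tested. The difference was 0.50 on the log2 scale (SE 0.055, adjusted P = 3.18e-08), or 1.41-fold. Both old libraries exceeded both young ones at all 6 times of day, and the log2 difference at single times lay between 0.44 at ZT 4 and 0.59 at ZT 12. On the deposited scale the difference was 0.72 (adjusted P = 6.94e-12), and over all other alternatives it stayed between 0.47 and 0.53 with a highest adjusted P of 0.000744. The last 173 bases of ref(2)P overlap CG10337 on the opposite strand. CG10337 had 9.49 to 19.7 scaled FPKM in old heads, all above the 3.72 to 7.62 in young heads. The libraries were made with a stranded kit, but whether the counting used the strand is not given in the sources used here, so reads from the shared stretch may not be told apart.

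The kinase complex that starts autophagy was represented by Atg1, the serine/threonine kinase at its centre, and by its partners Atg13 and Atg17, of which Atg17 is the fly counterpart of mammalian FIP200. None of the 3 passed the age test. Atg1 (3L:12784429-12805116, minus strand) had a lowest value of 34.7, a median of 42.0 and a highest of 51.0 scaled FPKM in old heads, against 37.6, 47.4 and 51.7 in young heads. The ranges overlapped widely, with 4 of the 12 old libraries below the lowest young one. Its difference was -0.16 (SE 0.064, adjusted P = 0.0412), short of the threshold, and without scaling it had the other sign, at 0.061 (adjusted P = 0.475). At ZT 0 the gap was widest, with means of 36.6 scaled FPKM in old and 50.1 in young heads, while at ZT 20 they were 49.0 in old and 50.2 in young heads.

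Atg13 (3R:8349815-8352817, plus strand) is the subunit through which the nutrient kinase TOR acts on the complex. Its values had a minimum of 14.03, a median of 17.1 and a highest of 22.1 scaled FPKM in old heads, against 13.4, 16.2 and 24.6 in young heads. No old library lay outside the young range, and the difference was -0.0051 (SE 0.091, adjusted P = 0.967). Atg17 (3R:5669713-5679930, plus strand) is a scaffold of the complex and varied least of the 9 genes, with a coefficient of variation of 6.75% in old and 5.95% in young heads. It had a lowest value of 21.3, a median of 24.3 and a highest of 26.7 scaled FPKM in old heads, against 19.8, 22.3 and 25.2 in young heads. The ranges overlapped, although both old libraries were above both young ones at 4 of the 6 times. The difference of 0.089 (SE 0.040, adjusted P = 0.0622) missed the threshold, while without scaling it was 0.30 and passed (adjusted P = 2.28e-06).

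Atg9 (2R:16294400-16297232, plus strand) is the membrane-spanning protein of the vesicles that seed the autophagosome. Its values ran from 9.52 to 13.1 scaled FPKM in old heads, with a median of 11.6, against 8.58 to 14.1 in young heads, with a median of 10.8. All old libraries lay inside the young range. Its difference was 0.061 (SE 0.068, adjusted P = 0.468), and without scaling it was 0.27 and passed the threshold (adjusted P = 0.00168).

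The conjugation system was represented by Atg7, Atg5 and the Atg8 paralogues. Atg7 (2R:18620466-18625044, minus strand) is the E1-like enzyme that activates Atg8 and Atg12. It had a lowest value of 8.28, a median of 12.0 and a highest of 13.9 scaled FPKM in old heads, against 9.78, 12.3 and 13.9 in young heads. The ranges nearly coincided, with 1 old library below and 1 above the young ones, and the difference was -0.053 (SE 0.063, adjusted P = 0.496). Atg5 (X:7314622-7323770, minus strand) is joined to Atg12 to form part of the ligase for Atg8. In scaled FPKM, Atg5 had a lowest value of 4.60, a median of 6.34 and a highest of 12.0 in old heads, against 5.44, 6.51 and 10.2 in young heads. This was the most variable of the 8 tested genes, with a coefficient of variation of 29.2% in old and 22.3% in young heads, and the age difference was -0.035 (SE 0.12, adjusted P = 0.818). Atg5 lies within the annotated span of CG1677 on the same strand, which averaged 12.1 scaled FPKM in old and 13.1 in young heads. Atg1 and Atg7 each overlap a gene on the opposite strand, CG42709 (13.5 in old, 16.6 in young heads) and CG5335 (9.86 in old, 8.78 in young heads).

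Atg8a (X:10764878-10768338, minus strand) is the ubiquitin-like protein that is attached to the membrane and marks autophagosomes. It had a lowest value of 439, a median of 488 and a highest of 626 scaled FPKM in old heads, against 426, 465 and 606 in young heads. A single old library exceeded the highest young one, and the difference was 0.080 (SE 0.071, adjusted P = 0.355). At ZT 0 the ages lay apart, with means of 588 scaled FPKM in old and 468 in young heads, whereas at ZT 4 they were 445 in old and 446 in young heads. At ZT 20 both old libraries were also above both young ones, with closer means of 464 in old and 446 in young heads. Without scaling the difference was 0.30 and passed the threshold (adjusted P = 0.000467). On the deposited scale, therefore, 4 of the 8 genes were called higher in old heads (Atg8a, Atg9, Atg17 and ref(2)P), but so were 4264 of 9808 genes, with 1064 called lower, where scaling gave 2004 higher and 2065 lower of 9800.

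Atg8b (3R:17724410-17725063, minus strand) is a second Atg8 gene, known for its expression in the male germ line. It did not pass the filter, with a lowest value of 0, a median of 0.15 and a highest of 0.53 scaled FPKM in old heads, against 0, 0.12 and 0.15 in young heads. It was listed at 0 in 3 old and 4 young libraries, and 6 old libraries exceeded the highest young one. In a fit of 15736 genes with no filter its difference was 0.11 (SE 0.059, adjusted P = 0.153). Of the 4 testis markers dj, Mst87F, bam and Mst98Ca, none passed the filter, Mst98Ca was at 0 in all libraries, and their summed level was 0.044 to 0.51 scaled FPKM in old and 0 to 0.46 in young heads.

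**Figure D2:**
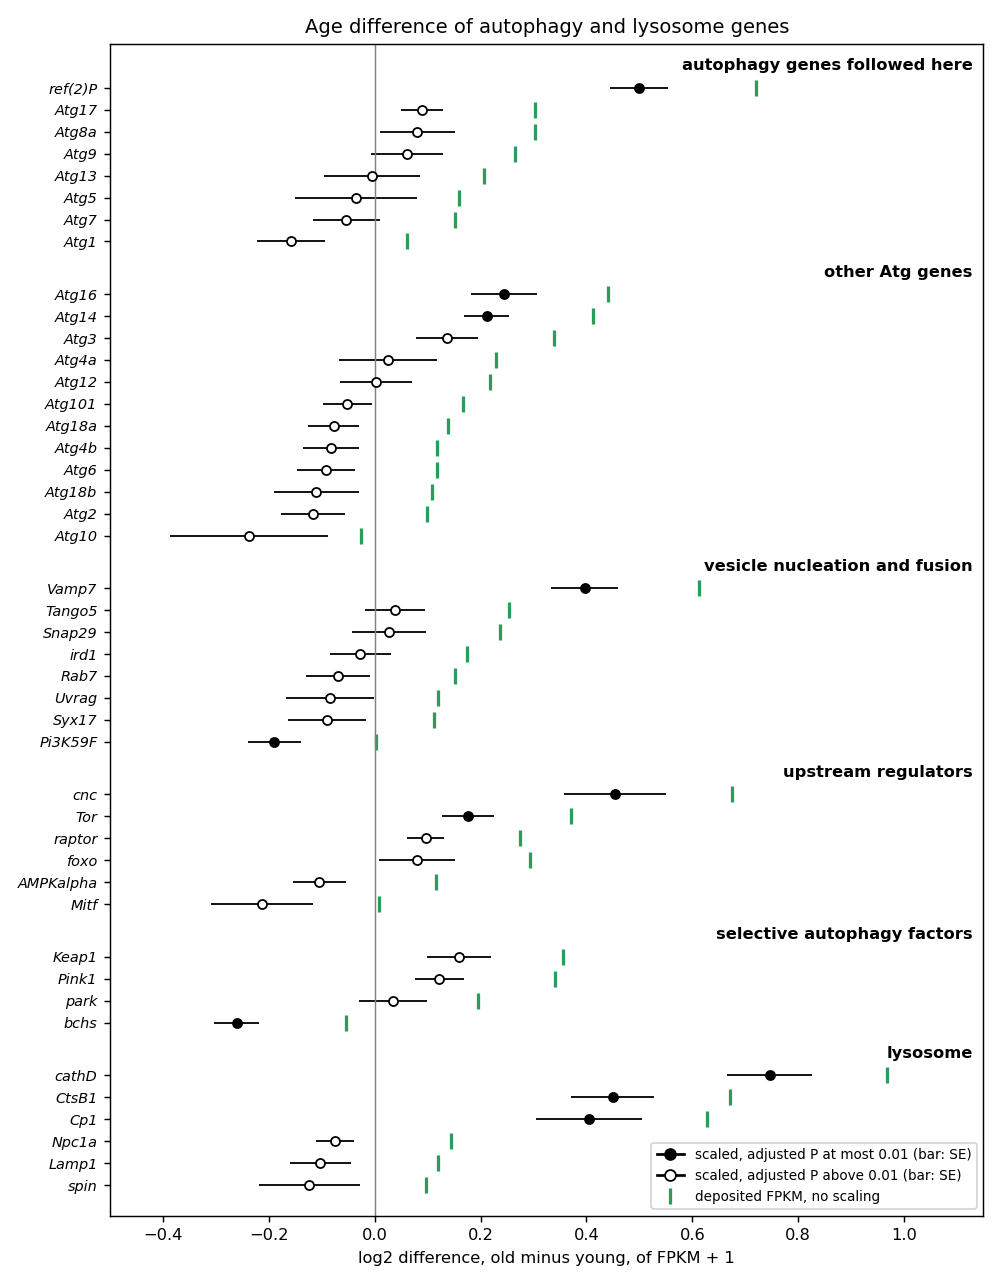
log2 difference, old minus young, of FPKM + 1 for the 8 autophagy genes tested and for 36 other genes of the pathway, by group. Circles with SE bars are scaled values, filled where the adjusted P was at most 0.01, and green ticks are the same differences without scaling, shifted to the right by about the scaling difference of 0.22; ref(2)P at 0.50 is the only filled circle in the top group.

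For the daily rhythm, a 24 h cosine curve was fitted to log2(scaled FPKM + 1) at each age in a single limma model, called at an adjusted P of at most 0.05. Of the 8 genes tested, 1 was called rhythmic in old heads and 1 in young heads, against 14.2% of the 9613 genes tested in old heads and 15% in young heads. It was ref(2)P at both ages. No gene of the 8 had a rhythm that differed between the ages, where 0.322% of all genes were called in the interaction test. At an unadjusted P under 0.05 the interaction called none of the 8 and 613 of all genes. The median fitted amplitude was 0.12 in old and 0.10 in young heads over the 8 genes, and 0.14 in old and 0.13 in young heads over all genes tested.

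ref(2)P had its highest mean at ZT 12 in old heads, with 187 scaled FPKM, and at ZT 8 in young heads, with 127. The lowest means at both ages were at ZT 20, with 139 in old and 101 in young heads. The fitted amplitude was 0.15 in old heads (SE 0.038, adjusted P = 0.0358), with a peak at ZT 9.83, and 0.14 in young heads (SE 0.038, adjusted P = 0.0445), with a peak at ZT 8.61. The curves did not differ detectably between the ages (difference in amplitude 0.0077, interaction adjusted P = 0.972), while the level was higher in old heads at all 6 times. Both rhythm calls were near the threshold. In old heads the call was lost without any one of 7 old libraries (the first cycle at ZT 4 and both cycles at ZT 8, ZT 12 and ZT 20), with adjusted P values of 0.0517 to 0.0986. In young heads it was lost without any one of 14 libraries, with adjusted P values of 0.0518 to 0.137. These were the old libraries of the first cycle at ZT 4, both cycles at ZT 8 and the second at ZT 12, and the young libraries of the first cycle at ZT 0, the second at ZT 4 and both cycles at ZT 8, ZT 12, ZT 16 and ZT 20. Without the 4 libraries that stand apart the adjusted P was 0.0437 in old and 0.169 in young heads. On the deposited scale, with no scaling, the fitted amplitude of ref(2)P was 0.10 at both ages. It was called at neither (adjusted P = 0.144 in old and 0.154 in young heads). On that scale ref(2)P in old heads was at 191 and 182 FPKM at ZT 0 and at 194 and 178 at ZT 12. The time of its highest mean in old heads thus depends on the scaling.

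Atg13 came nearest to the threshold among the other genes. Its means were lowest at ZT 4, at 14.2 scaled FPKM in both ages, and highest at ZT 12 in old heads (20.2) and at ZT 20 in young heads (20.8). The fitted amplitude was 0.21 in old heads (SE 0.070, adjusted P = 0.108) and 0.24 in young heads (SE 0.070, adjusted P = 0.0594), with peaks at ZT 15.6 in old and ZT 15.9 in young heads. Leaving out the old library of the first cycle at ZT 16 gave adjusted P values of 0.0186 in old and 0.0301 in young heads, leaving out the young library of the second cycle at ZT 12 gave 0.0291 in young heads, and leaving out that of the first cycle at ZT 16 gave 0.00786 in young heads. Each of these 3 is the partner of a library that stands apart. Without the 4 libraries that stand apart themselves, the values were 0.162 in old and 0.596 in young heads. The call for Atg13 thus depends on which library of ZT 12 and ZT 16 is used.

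The remaining genes gave adjusted P values of 0.196 or more at both ages in the rhythm test. Atg5 had the largest fitted amplitude in old heads, 0.26 (SE 0.11, adjusted P = 0.207), and Atg7 the smallest, 0.047 (SE 0.066, adjusted P = 0.853). Atg17, with an amplitude of 0.087 in old heads (adjusted P = 0.196), was called there without the 4 libraries that stand apart, at an amplitude of 0.11 (adjusted P = 0.0442).

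**Figure D3:**
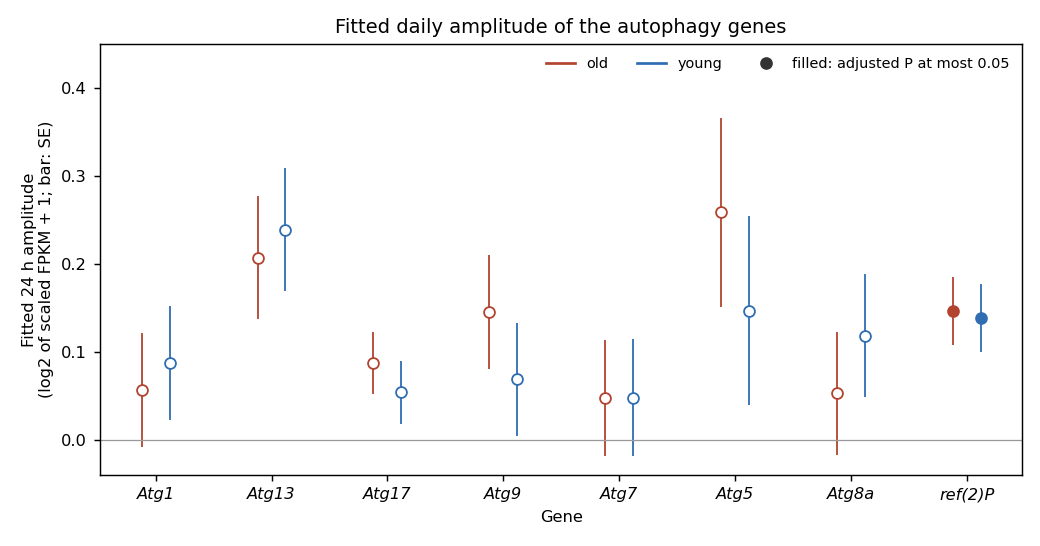
Fitted 24 h amplitude of log2(scaled FPKM + 1), with SE bars, for the 8 autophagy genes tested, old heads (red) left of young heads (blue). Filled points have an adjusted P of at most 0.05, which holds for ref(2)P alone, at 0.15 in old and 0.14 in young heads, although Atg13 and Atg5 have larger amplitudes with wider errors.

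Some autophagy genes moved together in 3 of the 4 libraries that stand apart. In the second old library of ZT 16 Atg5 was at 12.0 scaled FPKM, against 5.58 in the first cycle. The same gene was at 9.89, against 5.67, in the first young library of ZT 12 and at 10.2, against 5.95, in the second young library of ZT 16. These are 3 high values of Atg5 that carry most of its spread. Atg13 was also higher in these libraries (22.1 against 15.7, 21.5 against 16.0 and 24.6 against 15.9 scaled FPKM, in the same order), and so was Atg8a (626 against 449, 606 against 467 and 546 against 426). Atg1 was lower (34.7 against 43.2, 41.1 against 46.4 and 37.6 against 48.4), as was Atg7 (10.6 against 12.8, 12.7 against 13.9 and 9.78 against 13.4). ref(2)P stayed within 0.11 on the log2 scale of the other cycle. In the young library of ZT 20 that stands apart, the log2 differences of the 8 genes were between -0.17 and 0.060. Atg1 (-0.084) and Atg7 (-0.17) were lower there too. Atg5 (0.015) and Atg13 (0.060) differed little, and Atg8a was lower (-0.078), so at most part of the pattern was shared. Part of the pattern was also seen in libraries not said to stand apart. At ZT 0 both old libraries had high Atg5 (8.00 and 7.76 scaled FPKM) and Atg8a (592 and 585). In the same libraries Atg1 (35.7 and 37.6) and Atg7 (8.28 and 10.8) were low, but Atg13 (15.7 and 16.9) was below its old median of 17.1. No label gives a reason for the separation of these libraries, which were identified from all genes after the values were seen.

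**Figure D4:**
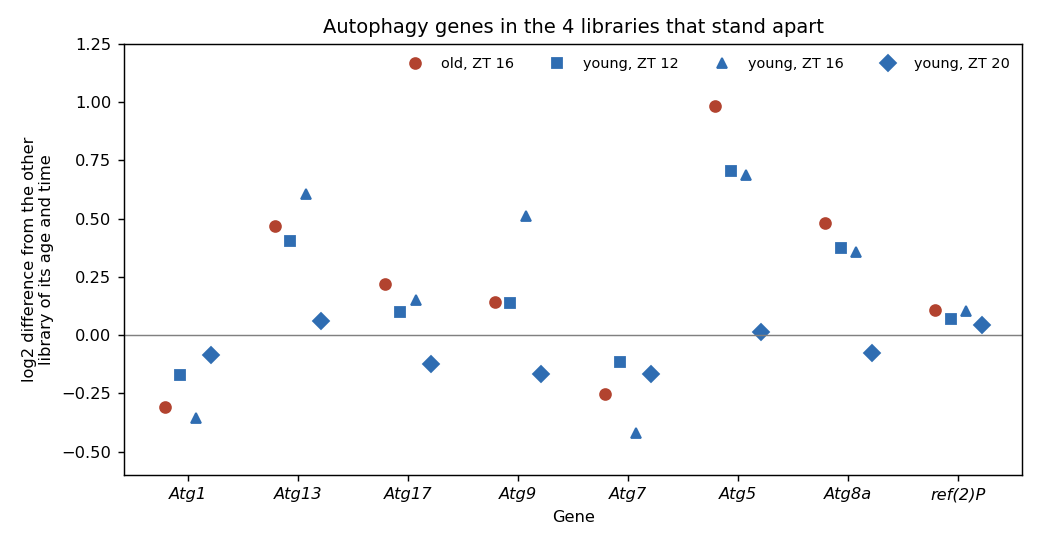
log2 difference of scaled FPKM + 1 between each of the 4 libraries that stand apart and the other library of its age and time, for the 8 autophagy genes tested. At ZT 16 in old heads (red) and at ZT 12 and ZT 16 in young heads (blue squares and triangles) Atg5, Atg8a and Atg13 are above 0. Atg5 is at 0.69 to 0.99 there, and Atg1 and Atg7 are below 0. The young library of ZT 20 (diamonds) lies between -0.17 (Atg7) and 0.060 (Atg13).

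The rest of the pathway was followed in 36 genes in 5 lists, all of which passed the filter. The age test called 8 of them higher in old heads (22.2%) and 2 lower (5.56%), against 20.4% and 21.1% of all genes tested. The median log2 difference over the 36 genes was -0.013. Without scaling 15 of the 36 were called higher and 0 lower, against 4264 higher and 1064 lower of all 9808 genes tested on that scale. The largest difference of the 36 genes was that of cathD.

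In the list of lysosome genes 3 of 6 were higher and none lower, with a median log2 difference of 0.17. All 3 encode cathepsins, the proteases that degrade autophagic cargo. cathD, cathepsin D, had a lowest value of 240, a median of 307 and a highest of 385 scaled FPKM in old heads, against 161, 179 and 244 in young heads. With 11 of 12 old libraries above the highest young one, it was 1.68-fold higher (log2 0.75, SE 0.080, adjusted P = 2.04e-08). CtsB1, cathepsin B, had a lowest value of 111, a median of 155 and a highest of 191 scaled FPKM in old heads, against 88.4, 115 and 137 in young heads. It was 1.37-fold higher (log2 0.45, SE 0.079, adjusted P = 3.32e-05), and 10 of 12 old libraries exceeded the young range. Cp1, the cathepsin L of flies, had a lowest value of 289, a median of 335 and a highest of 399 scaled FPKM in old heads, against 183, 271 and 377 in young heads. Its ranges overlapped more, with 4 old libraries above the young ones, at a difference of 0.40 (SE 0.10, adjusted P = 0.00137). Cp1 was rhythmic in young heads (amplitude 0.33, adjusted P = 0.00935, peak at ZT 14.6), with an amplitude of 0.18 and an adjusted P of 0.161 in old heads, but the interaction did not pass (adjusted P = 0.940). Lamp1, Npc1a and spin, which encode lysosomal membrane proteins, had log2 differences of -0.10, -0.075 and -0.12. Without scaling these were 0.12, 0.14 and 0.097, and none was called on either scale. spin, a membrane transporter needed to reform lysosomes, was rhythmic in old heads (amplitude 0.28, adjusted P = 0.0174) and had an amplitude of 0.22 in young heads (adjusted P = 0.0603, and 0.0372 with time of day as a factor).

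**Figure D5:**
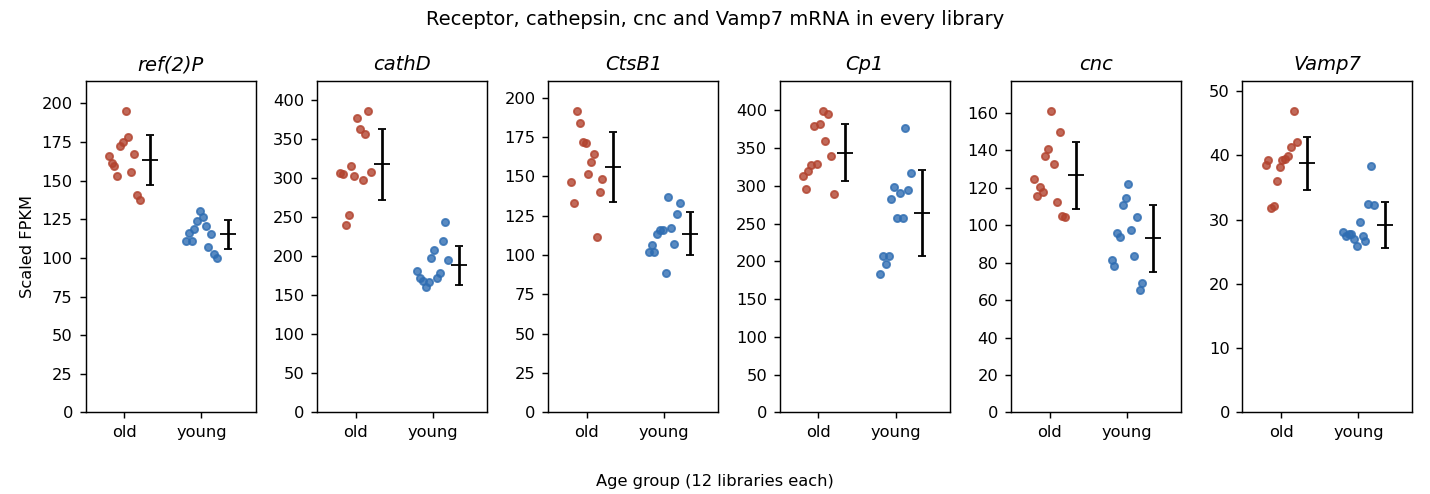
Scaled FPKM of ref(2)P, 3 cathepsin genes, cnc and Vamp7 in every library, old heads (red) left of young heads (blue), with mean and SD (black). Points run from ZT 0 to ZT 20 within each age, and all axes start at 0; the ages do not overlap for ref(2)P, overlap in 1 old library for cathD and overlap widely for Cp1.

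Among 12 further Atg genes 2 were higher in old heads and none lower, with a median of -0.065. Atg14, which directs the lipid kinase Vps34 to the autophagosome, averaged 10.2 ± 0.78 scaled FPKM in old and 8.71 ± 0.63 in young heads (SD, n = 12 libraries each, log2 difference 0.21, limma adjusted P = 0.000193). Atg16, the partner of Atg5 in the Atg8 ligase, averaged 8.11 ± 0.77 in old and 6.72 ± 0.92 in young heads (SD, n = 12 each, log2 difference 0.24, limma adjusted P = 0.00186). For both genes 8 of the 12 old libraries lay above the young range. Atg4a, a protease that processes Atg8, and Atg18b, a lipid-binding protein, were rhythmic in old heads with amplitudes of 0.29 and 0.24 (adjusted P = 0.0342 and 0.0392). In young heads their amplitudes were 0.11 and 0.095 and were not called, and the interaction passed for neither (adjusted P = 0.838 and 0.965).

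Of 8 genes for vesicle nucleation and fusion 1 was higher and 1 lower in old heads. Vamp7, a SNARE of the fusion with lysosomes, had a lowest value of 31.8, a median of 39.3 and a highest of 46.9 scaled FPKM in old heads, against 25.9, 27.8 and 38.4 in young heads. It was 1.32-fold higher (log2 0.40, SE 0.063, adjusted P = 8.29e-06), and it was also rhythmic in old heads (amplitude 0.17, adjusted P = 0.0430). In young heads the amplitude was 0.15 (adjusted P = 0.0883, and 0.0131 without scaling), and the interaction did not pass (adjusted P = 0.968). Its SNARE partners Syx17 and Snap29 differed by -0.090 and 0.027 and were not called. Pi3K59F, the lipid kinase Vps34, averaged 5.64 ± 0.40 in old and 6.59 ± 0.77 in young heads (SD, n = 12 each, log2 difference -0.19, limma adjusted P = 0.00267), a call that was absent without scaling (0.0021, adjusted P = 0.979). In young heads it was rhythmic (amplitude 0.15, adjusted P = 0.0398).

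Among 6 upstream regulators 2 were higher in old heads. cnc, the fly counterpart of the stress transcription factor Nrf2 and, in flies, an activator of ref(2)P, had a lowest value of 104, a median of 123 and a highest of 161 scaled FPKM in old heads, against 65.4, 94.7 and 122 in young heads. It was 1.37-fold higher (log2 0.45, SE 0.096, adjusted P = 0.000308), with 6 of 12 old libraries above the young range. cnc was rhythmic in young heads, with an amplitude of 0.34 (adjusted P = 0.00101) and a peak at ZT 9.39, while in old heads its amplitude was 0.20 (adjusted P = 0.0549) with a peak at ZT 10.4. The interaction did not pass (adjusted P = 0.940). Tor, the nutrient-sensing kinase that restrains autophagy, averaged 7.80 ± 0.65 scaled FPKM in old and 6.79 ± 0.66 in young heads (SD, n = 12 each, log2 difference 0.18, limma adjusted P = 0.00423). Mitf, the transcription factor of lysosomal genes, differed by -0.21 and was not called (adjusted P = 0.0648).

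Of 4 selective autophagy factors 1 was lower in old heads. bchs, the homologue of human ALFY, which links aggregates to the machinery, had a lowest value of 9.17, a median of 10.6 and a highest of 11.2 scaled FPKM in old heads, against 11.3, 12.5 and 15.3 in young heads. All old libraries were below all young ones (log2 difference -0.26, SE 0.043, adjusted P = 1.36e-05). The share of all genes separated in this direction was not determined. On the deposited scale the ranges overlapped (9.60 to 12.4 FPKM in old and 10.6 to 12.8 in young heads). The call of bchs as lower was lost without scaling, where its difference was -0.055 (adjusted P = 0.212). There 4264 of 9808 genes were called higher, and of the 4 factors 2 were higher and 0 lower. These 2 were Pink1 and Keap1, the inhibitor of cnc, at 0.12 (adjusted P = 0.0263) and 0.16 (adjusted P = 0.0277) on the scaled values. Both were also called with time of day as a factor (adjusted P = 0.00298 for Pink1 and 0.00602 for Keap1). That fit called 2386 of 9800 genes higher, against 2004 in the main fit. bchs was rhythmic in young heads (amplitude 0.13, adjusted P = 0.0302). Pink1, the kinase that marks damaged mitochondria, was rhythmic at both ages, with amplitudes of 0.12 in old (adjusted P = 0.0429) and 0.12 in young heads (adjusted P = 0.0426). Over all 5 lists 5 genes were rhythmic in old heads (13.9%) and 5 in young heads (13.9%), near the background of 14.2% in old and 15% in young heads, and no gene was called in the interaction test. Without the 4 libraries that stand apart, the 5 calls in old heads held, as did those of cnc and Cp1 in young heads, but those of Pi3K59F (adjusted P = 0.248), bchs (adjusted P = 0.191) and Pink1 (adjusted P = 0.0906) in young heads did not. In the same fit cnc gained a call in old heads (adjusted P = 0.0109). Without scaling, Atg18b in old heads (adjusted P = 0.0685) and bchs in young heads (adjusted P = 0.479) lost their rhythm calls. Calls were gained by Atg6, Syx17 and Npc1a in old heads (adjusted P = 0.0413, 0.0470 and 0.00421). In young heads they were gained by Atg3, Atg6, Atg12, Atg16, Tango5, Vamp7, Keap1 and Npc1a (adjusted P of 0.0131 to 0.0397). Over all genes 2170 were called in old and 2082 in young heads, against 1368 and 1442 with scaling. With the 6 times as levels of a factor, Atg4a (adjusted P = 0.0958) and Pink1 (adjusted P = 0.0898) lost their calls in old heads. So did Pi3K59F (adjusted P = 0.0634), bchs (adjusted P = 0.150) and Pink1 (adjusted P = 0.129) in young heads. That fit added calls of Atg4b, Atg10 and Uvrag in old heads (adjusted P = 0.0352, 0.0309 and 0.00469). In young heads it added Atg10, Atg101 and spin (adjusted P = 0.0213, 0.0463 and 0.0372). It called 1561 genes of all in old and 1266 in young heads.

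Markers of cell types also differed between the ages, and in bulk heads fewer cells of a type and less RNA per cell cannot be told apart. The 4 neuronal markers elav, nSyb, brp and Syt1 were all lower in old heads, with a summed level of 533 to 861 scaled FPKM in old and 912 to 1381 in young heads. Of the glial markers 2 of 4 were lower (sums of 1228 to 2165 in old and 1687 to 2446 in young heads), as were 2 of 4 photoreceptor markers (11341 to 16550 in old and 15019 to 17949 in young heads), 2 of 3 tested fat body markers (4119 to 8239 in old and 9726 to 24167 in young heads) and 1 of 4 muscle markers (325 to 462 in old and 424 to 546 in young heads). Among all genes tested 21.1% were called lower and 20.4% higher. The glial sums were mostly Gs2 (mean 1400 scaled FPKM in old and 1616 in young heads, limma adjusted P = 0.0582). The photoreceptor sums were mostly ninaE (mean 10553 in old and 11698 in young heads, limma adjusted P = 0.137). Neither gene was called, so these 2 sums mainly reflect genes without a call. Of the 4 haemocyte markers 2 were higher, Hml and NimC1, and 1 lower, Pxn, with sums of 87.6 to 117 in old and 66.4 to 86.6 in young heads. NimC1, a phagocytosis receptor, was 1.60-fold higher in old heads (adjusted P = 2.92e-08). Without scaling 3 of the 4 neuronal markers, 1 of 4 glial, 0 of 4 photoreceptor, 2 of 3 fat body and 1 of 4 muscle markers were lower in old heads, 1 glial marker (repo) was higher, and of the haemocyte markers 3 were higher and 1 lower. On that scale 1064 of 9808 genes were called lower and 4264 higher. With time of day as a factor 2 muscle markers were lower, where 2393 of 9800 genes were called lower, against 2065 in the main fit. Of these markers, Fbp1 did not pass the filter and none was at 0 in all libraries. Lsp2 ran from 0.98 to 548 scaled FPKM in young heads (median 2.96) and from 0.94 to 21.5 in old heads. The ovary markers osk, vas, nos and bcd did not pass the filter. Their sums were 0.029 to 6.14 scaled FPKM in young heads (median 0.25) and 0.65 to 1.23 in old heads. Whether other tissue was present in single libraries was not tested. The part of the age shifts of cell type markers in the differences of ref(2)P, the cathepsins, cnc and Vamp7 was not tested.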

How the data were processed

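The authors filtered reads with skewer, aligned them with TopHat2 to the fly genome (dm6, BDGP6) and computed FPKM per gene with Cuffdiff. They deposited these FPKM values in 1 table per age, beside the results of their own rhythm fit (amplitude, phase, P and q values), which were not used here. Table columns carry hours but no replicate number, so each was assigned to its age and time and called first or second cycle.

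A set of 237 microRNA hairpins was left out. Libraries were scaled by the median ratio over 9159 genes above 0 in every library with a median of at least 1 FPKM. The age effect, the 24 h cosine and sine terms of each age and their interaction with age were tested with limma 3.58.1 (eBayes with trend, R 4.3.3) on log2(FPKM + 1), adjusted by Benjamini-Hochberg over all genes (at either age, a mean above 1 FPKM for the age effect and a median reaching 1 FPKM for rhythm). Python 3.11.15 with numpy 2.4.6, pandas 2.3.3 and matplotlib 3.10.9 was used. All 3 tests were run on simulated data of 9613 genes, in which 200 genes changed by 0.5 on the log2 scale. The age test recovered 174, the rhythm test in old heads 176 and the interaction test 152, with 2, 9 and 4 false calls. The simulated noise was independent between genes and libraries, with no shift shared within a library and, for the age test, no daily curve. The step of 0.5 is above every fitted amplitude of the 8 autophagy genes, of which the largest was 0.26 (Atg5 in old heads). These numbers therefore do not measure how well the tests find or miss changes as small as those seen here.

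All 9 genes are named, and of the 5 pathway lists those called in any test, at most 4 per list by smallest adjusted P. Genes without a call that are named (Lamp1, Npc1a, Syx17, Snap29, Mitf, Keap1), the overlapping genes and single markers were added after their values were seen. So were the genes named only for a call under an alternative. The genes and lists were chosen with earlier results of these data known. CtsB1 was matched through its older name, CG10992. Coordinates are gene spans of the Ensembl BDGP6 annotation. Alternatives were no scaling, a pseudocount of 0.1, no filter or a minimum of 5 FPKM, a replicate block, time of day as a factor, each age fitted alone, each cycle and each library left out and, added after the data were seen, leaving out the 4 libraries that stand apart. The spread between libraries gave the precision. Protein and promoter sequences were not used here.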

Additional observations from a re-analysis of the deposited data

How the results depend on the processing

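The higher level of ref(2)P in old heads passed under every alternative run. Without scaling, 4264 genes were higher and 1064 lower in old heads, 4 of the autophagy genes were higher, 2170 genes were rhythmic in old heads, and 0 of the autophagy genes were rhythmic at either age. With each age fitted alone, 898 genes were rhythmic in young heads and 0 of the autophagy genes at either age (ref(2)P adjusted P = 0.117 in old and 0.065 in young heads); that fit has no age or interaction value. The second cycle alone gave 928 genes higher and 1133 lower in old heads, 35 rhythmic in old, 61 rhythmic in young heads and 0 with a changed rhythm. The first cycle alone gave 1087 higher and 1408 lower, 34 rhythmic in old, 27 rhythmic in young heads and 0 with a changed rhythm. In both, 0 of the autophagy genes were rhythmic, and each of these fits has 12 of the 24 libraries.

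Without the 4 libraries that stand apart, an alternative chosen after seeing the data, 2 autophagy genes were rhythmic in old heads (ref(2)P and Atg17) and 0 in young heads, 721 genes were rhythmic in young heads and 20 had a changed rhythm. With each library left out in turn, 0 to 2 autophagy genes were rhythmic at either age, and 16 to 27 genes had a changed rhythm. Where a cause for these moves is not plain from the number of libraries, the cause was not tested. Time of day as a factor has no amplitude.

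The cycle numbers showed no general pairing of the samples: of 66 correlations between cycle differences of different times and ages, 15 were above 0.1. Their median was -0.042, and they ran from -0.41 to 0.41. The study states that young and old samples taken in parallel shared a sequencing lane. Pairing of the ages within a time was not tested separately. At ZT 16 Atg5, Atg8a and Atg13 were higher, and Atg1 and Atg7 lower, in the second cycle at both ages. With the replicate block 0 of the autophagy genes were rhythmic in young heads (ref(2)P adjusted P = 0.0561), 1 in old heads, and the age calls of the 8 genes did not move. FPKM values hold no read numbers, so low levels such as those of Atg8b cannot be given a counting error, and differences of the size of the scaling step, 0.22 on the log2 scale, depend on the scaling chosen.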
